A study of Mus musculus with 2 samples.

Results

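The genes described here encode the proteins of the mitochondrial ribosome that carry the names Mrpl or Mrps. They were taken by name: every gene of the count matrices whose symbol begins with Mrpl or Mrps followed by a digit, which gave 77 of 28692 genes, 48 named Mrpl and 29 named Mrps. No measured value entered that choice.

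The cells were bone marrow cells of C57BL/6 mice, profiled by droplet single-cell RNA sequencing after 3 days of culture toward myeloid cells. LSK cells, a lineage-negative fraction with Sca-1 and Kit on its surface that is rich in blood stem and progenitor cells, received a retrovirus with a short hairpin RNA (shRNA), were sorted for the GFP that the virus carries, and were grown in 20% fetal bovine serum with the cytokines GM-CSF (10 ng/ml) and SCF (10 ng/ml). One group carried a control shRNA and the other an shRNA against Cxxc5, a gene for a CXXC zinc-finger protein. Each group was 1 library made from a pool of 5 mice, so no replicate exists, no test between groups could be made, and it is not known here if the pools shared mice. Both groups shared the virus, the sort and the culture. All values are of infected cells in culture, not of fresh marrow.

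The mitochondrial ribosome sits in the mitochondrial matrix and translates the few mRNAs of mitochondrial DNA, whose products are subunits of the respiratory chain and of ATP synthase. Its ribosomal RNAs come from mitochondrial DNA, whereas all of its proteins are encoded in the nucleus, made in the cytosol and imported. Some descend from proteins of the bacterial ribosome, and others were added in the mitochondrial lineage.

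By that division, 30 of the genes encode bacterial-type proteins of the large subunit, 20 mitochondria-specific proteins of the large subunit, 16 bacterial-type proteins of the small subunit and 10 mitochondria-specific proteins of the small subunit. Mrps18a and Mrps30 have small-subunit names but encode large-subunit proteins and were counted there. Mrps18a and Mrps18b were counted as mitochondria-specific, although their products descend from the same bacterial protein as that of Mrps18c. Mrps36 stood in none of these lists, since its product is now known as a subunit of the oxoglutarate dehydrogenase complex. All 77 genes were located in GENCODE M21, which uses GRCm38, on 17 chromosomes, and 4 of them shared exon sequence on the same strand with another gene (Mrpl53 with Gm42688, Mrps24 with Urgcp, Mrps6 with Slc5a3 and Mrps34 with Nme3), so their counts are uncertain to that extent.

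Of the 77 genes, 68 had a start in the RefSeq promoter table for GRCm38.p6, from which the 250 bases before the start were read. The windows of 6 genes are shown because they stand at the ends of the results that follow: of the genes with a window, Mrps2, Mrpl12 and Mrps18b had the lowest levels in late neutrophil cells relative to progenitors, and Mrps18c, Mrpl14 and Mrps21 the smallest differences, by the mean of both libraries. Mrps18b and Mrps18c are paralogs of one bacterial protein, and Mrpl12 forms the stalk of the large subunit. The windows are chr2:28467816-28468065 on the plus strand for Mrps2, chr11:120484387-120484636 on the plus strand for Mrpl12 and chr17:35916441-35916690 on the minus strand for Mrps18b. They are chr5:100798509-100798758 on the plus strand for Mrps18c, chr17:45686099-45686348 on the plus strand for Mrpl14 and chr3:95871515-95871764 on the minus strand for Mrps21. Each is written 5′ to 3′ along the gene, with matches to the searched motifs in capitals.
Mrps2: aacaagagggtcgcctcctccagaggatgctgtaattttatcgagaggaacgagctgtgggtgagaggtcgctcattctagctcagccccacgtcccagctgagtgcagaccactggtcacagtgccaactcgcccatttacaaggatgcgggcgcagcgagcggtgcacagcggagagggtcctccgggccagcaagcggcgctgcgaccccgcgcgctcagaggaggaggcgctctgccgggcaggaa
Mrpl12: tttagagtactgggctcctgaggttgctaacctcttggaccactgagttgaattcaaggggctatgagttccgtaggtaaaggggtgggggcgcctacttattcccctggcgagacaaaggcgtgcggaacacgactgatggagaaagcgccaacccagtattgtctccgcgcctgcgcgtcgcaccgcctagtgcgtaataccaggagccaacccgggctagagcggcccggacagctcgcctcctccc
Mrps18b: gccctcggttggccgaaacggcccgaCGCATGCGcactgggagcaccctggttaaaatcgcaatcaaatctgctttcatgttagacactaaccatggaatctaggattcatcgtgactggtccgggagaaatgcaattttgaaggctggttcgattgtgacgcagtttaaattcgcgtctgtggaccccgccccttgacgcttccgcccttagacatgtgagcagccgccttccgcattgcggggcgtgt
Mrps18c: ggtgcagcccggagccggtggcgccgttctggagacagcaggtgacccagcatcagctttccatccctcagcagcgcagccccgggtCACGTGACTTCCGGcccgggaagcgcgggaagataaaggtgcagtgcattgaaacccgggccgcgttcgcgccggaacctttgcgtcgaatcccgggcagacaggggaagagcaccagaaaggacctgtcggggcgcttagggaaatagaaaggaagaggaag
Mrpl14: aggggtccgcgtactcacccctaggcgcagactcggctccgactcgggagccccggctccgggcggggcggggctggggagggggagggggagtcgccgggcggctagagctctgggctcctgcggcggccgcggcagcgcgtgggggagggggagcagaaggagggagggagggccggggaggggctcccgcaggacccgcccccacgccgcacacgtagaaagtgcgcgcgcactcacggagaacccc
Mrps21: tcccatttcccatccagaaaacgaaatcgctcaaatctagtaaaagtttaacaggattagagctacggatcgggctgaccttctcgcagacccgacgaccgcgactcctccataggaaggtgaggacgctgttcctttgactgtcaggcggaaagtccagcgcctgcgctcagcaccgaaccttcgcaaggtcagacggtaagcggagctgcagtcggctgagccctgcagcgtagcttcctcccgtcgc

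In Mrps18b the capitals mark CGCATGCG, the inner letters of the NRF1 motif. In Mrps18c they mark the E-box CACGTG and, directly after it, the ETS motif CCGGAAGT read on the other strand. The windows of Mrps2, Mrpl12, Mrpl14 and Mrps21 held none of the letters searched. NRF1 and the ETS protein GABPA are regulators known for promoters of nuclear genes of mitochondrial proteins. A match is only a match of letters in this window, and the GENCODE starts of Mrps18c, Mrpl12 and Mrpl14 lie inside these windows.

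The ETS letters CCGGAAGT, searched on both strands like all others, were in 9 of 68 windows (13.2%), in 2.93% of the windows of 27025 genes in the table, and in 7.40% of those of 3728 genes measured at 20 CPM or more. CPM is a gene's share of all UMIs (unique molecular identifiers, which count each captured RNA molecule once) times 1000000. The full NRF1 motif was in 3 windows (4.41%), against 0.781% of all genes and 2.07% of the expressed ones. Their inner letters CGCATGCG, a shorter form added after the first search was seen and contained in it, were in 7 windows (10.3%), against 1.58% and 4.43%. Those 7 genes with a level of 20 CPM or more and the 58 without the letters had median log2 ratios of late neutrophil over progenitor cells of -1.19 and -1.13. For the ETS letters the medians were -0.76 over 8 genes with them and -1.16 over 57 without. For the full NRF1 motif they were -0.72 over 3 genes and -1.16 over 62, and for the E-box -1.43 over 5 and -1.09 over 60. The YY1 motif was in 1 window (1.47%, against 0.289% and 0.992%), the E-box CACGTG in 5 (7.35%, against 6.05% and 9.76%) and TATAAA in 4 (5.88%, against 13% and 6.09%). The median GC content of the windows was 58.4%, between that of all genes (52%) and that of expressed genes (60%).

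After filtering, the control library held 2912 cells and 49268318 UMIs (median 17197 per cell) and the knockdown library 6004 cells and 62867598 UMIs (median 10599). In the 2 libraries 26 cell barcodes were the same. Cxxc5 was at 9.38 CPM (462 UMIs) in the control and 1.16 CPM (73 UMIs) in the knockdown library. Of the genes that define LSK cells, Kit was at 24.1 and 25.2 CPM and Ly6a, which encodes Sca-1, at 10.1 and 7.52 CPM. Cells were placed in 6 gates by the share of their UMIs that came from marker lists. These gates are ranges of marker share and not proven cell types. With all cut-offs halved 20.5% of control and 24.2% of knockdown cells changed gate, and with all doubled 36.7% and 40.1% did. Markers of the dendritic, the mast cell and basophil, and the late neutrophil gate were at least 27.1 times as high there as in any other gate, whereas monocyte markers stood at 885 and 736 CPM in the dendritic gate and at 876 and 834 CPM in the monocyte gate. The progenitor list (Mpo, Elane and other granule enzymes) was also at 29813 and 31530 CPM in the early neutrophil gate, against 20964 and 21252 CPM in the progenitor gate, and the early neutrophil list was highest in the late neutrophil gate (175882 and 172258 CPM).

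The 77 genes together supplied 1.04% of control UMIs and 1.11% of knockdown UMIs. Their summed level was 10431 CPM (95% exact Poisson interval 10402 to 10459) in the control and 11078 CPM (11052 to 11104) in the knockdown library. All intervals here are 95%, treat UMIs as independent and hold counting error alone, without the spread of mice or cultures. The levels of single genes ranged widely. Mrpl18, of the central protuberance of the large subunit, was highest at 478 and 474 CPM in control and knockdown, followed by Mrpl33 (425 and 448 CPM), Mrpl12 (367 and 420 CPM), Mrpl20 (364 and 393 CPM) and the small-subunit gene Mrps14 (347 and 362 CPM). In 3' libraries each molecule gives 1 tag, so that these levels do not scale with gene length. At the other end, 3 genes did not reach 20 CPM in either library: Mrps31 (12.8 and 14.3 CPM), Mrps27 (9.21 and 10.2 CPM) and Mrpl53 (0.223 and 0.525 CPM), the last being one of the genes that overlap another on the same strand. The other 74 passed that minimum and are the ones counted below.

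Across the gates, the summed level was highest in progenitor cells and lowest in late neutrophil cells in both libraries. In the control library it was 11747 CPM in the progenitor gate (1141 cells), 10766 CPM in the monocyte gate (457 cells), 9589 CPM in the early neutrophil gate (557 cells), 8937 CPM in the mast cell and basophil gate (155 cells), 7829 CPM in the dendritic gate (64 cells) and 5735 CPM in the late neutrophil gate (310 cells). In the knockdown library the same gates gave 12038 CPM (2998 cells), 11204 CPM (662 cells), 10194 CPM (1026 cells), 9700 CPM (319 cells), 7872 CPM (64 cells) and 6365 CPM (455 cells). The order of the 6 gates was therefore the same in both, and the Poisson intervals of neighbouring gates did not overlap in either. Cells outside all gates, 228 and 480, were at 10370 and 10815 CPM. Megakaryocyte markers (320 and 129 CPM) and erythroid markers (187 and 44.3 CPM) had their highest level in these cells.

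**Figure D1:**
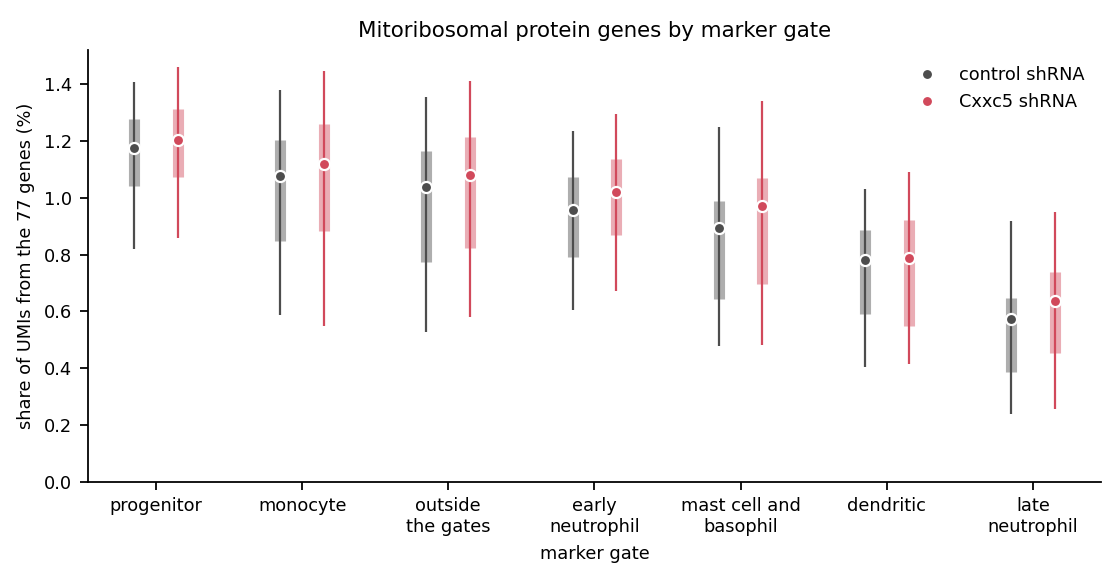
Share of UMIs from the 77 genes (vertical axis, %) by marker gate in the control shRNA and Cxxc5 shRNA libraries. Points are the share over all UMIs of a gate, thick bars the middle 50% of single cells and thin lines their 5th to 95th percentile. The point is highest in the progenitor gate (1.17% and 1.204%) and lowest in the late neutrophil gate (0.573% and 0.636%).

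In the late neutrophil gate, defined by secondary-granule genes such as Ltf, Camp and Lcn2, the summed level was 48.8% of the progenitor level in the control (log2 ratio -1.03, interval -1.05 to -1.01) and 52.9% in the knockdown library (log2 ratio -0.92, interval -0.94 to -0.90). Single cells differed in the same direction. The median share of a cell's UMIs was 1.17% and 1.199% in progenitor cells and 0.502% and 0.579% in late neutrophil cells, and the 95th percentile of the latter (0.918% and 0.951%) was below the 25th percentile of the former (1.04% and 1.07%). The median late neutrophil cell held 52 and 44 UMIs of these genes, and the median progenitor cell 228 and 137. With every cell thinned to 5000 UMIs, a median of 35 and 37 of the 77 genes was detected in progenitor cells and of 19 and 22 in late neutrophil cells.

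A share can be lower because other RNAs take more of the total. Marker genes of the gates supplied 20.5% and 20.7% of the UMIs of late neutrophil cells, against 2.26% and 2.29% in progenitor cells. With those UMIs left out of the totals, the summed log2 ratio was -0.74 and -0.62. Fewer molecules per cell and a larger total of other RNAs cannot be told apart beyond this. Depth also moved with the gates: the median was 19921 and 11467 UMIs in progenitor cells and 11544.5 and 7698 in late neutrophil cells. Across cells of the late gate the member share had a Pearson r of 0.45 and 0.46 with log UMIs (310 and 455 cells of 1 library each), and in the progenitor gate 0.32 and 0.29 (1141 and 2998 cells). Among cells of 6000 to 12000 UMIs, the summed log2 ratio was -1.22 and -0.88. G2/M genes, which mark dividing cells, were at 1090 and 1176 CPM in the late gate and at 917 and 944 CPM in the progenitor gate. The part of depth in the difference was not tested.

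Along the granulocytic cells, that is, the progenitor, early and late neutrophil gates together, the level was lower at each step of rising early neutrophil marker share (S100a8, S100a9, Ngp and others). In the control library, cells with fewer than 5 such UMIs per 10000 stood at 12039 CPM, those with 75 to 300 at 10394 CPM, those with 300 to 1000 at 8628 CPM and those with 1000 or more at 5436 CPM. In the knockdown library these bins stood at 12245, 10798, 9142 and 5960 CPM. The steps between the last bins were the largest. With marker UMIs left out of the totals, the ends were 12255 and 6967 CPM in the control and 12474 and 7724 CPM in the knockdown library.

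**Figure D2:**
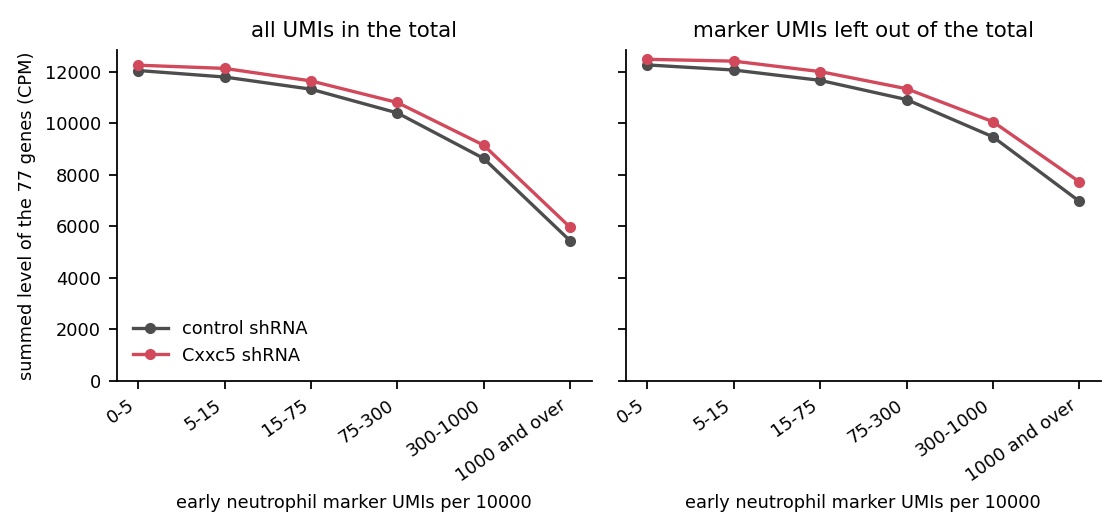
Summed level of the 77 genes (vertical axis, CPM) in granulocytic cells binned by early neutrophil marker UMIs per 10000 (horizontal axis), with all UMIs in the total (left, Poisson intervals smaller than the points) and with marker UMIs left out (right). In both libraries each bin is lower than the one before, from 12039 to 5436 CPM (control) and from 12245 to 5960 CPM (knockdown) on the left.

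Taken gene by gene, all 74 genes had a late-to-progenitor log2 ratio below 0 in both libraries, Mrps18c by so little that its sign changed with the processing, and 72 had an interval below 0 in both. Of all genes of 20 CPM or more, 3900 of 5034 in the control and 3869 of 5042 in the knockdown library were below 0. The share of all genes with an interval below 0 is not given here. At least 1.5-fold lower were 67 of 74 in the control, where 52.5% of all genes of 20 CPM or more were, and 58 of 74 in the knockdown library, where 49.7% were. None was 1.5-fold higher, where 10.4% and 10.3% of all genes were. Of the 74 genes, 12 and 8 reached 20 CPM in the progenitor gate alone, so that the minimum favoured a lower call for them. Without a minimum, 69 and 60 of 77 genes were at least 1.5-fold lower, beside 48.9% and 47.6% of all genes with a UMI in both gates. The median log2 ratio was -1.19 and -1.08, beside -0.63 and -0.58 over all such genes. Without marker UMIs in the totals, 50 and 45 of 74 were at least 1.5-fold lower, beside 35.8% and 32.7% of all genes. Below 0 in both libraries were 71 of the 74, while Mrps18c and Mrpl14 were above 0 in both and Mrpl39 in one. With these totals, 3368 of 5267 (control) and 3306 of 5278 (knockdown) of all genes were below 0. The log2 ratios of the 74 genes had a Pearson r of 0.92 and a Spearman rho of 0.94 between the libraries. These are separate cultures, but the genes are not independent and gates were drawn with the same markers.

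**Figure D3:**
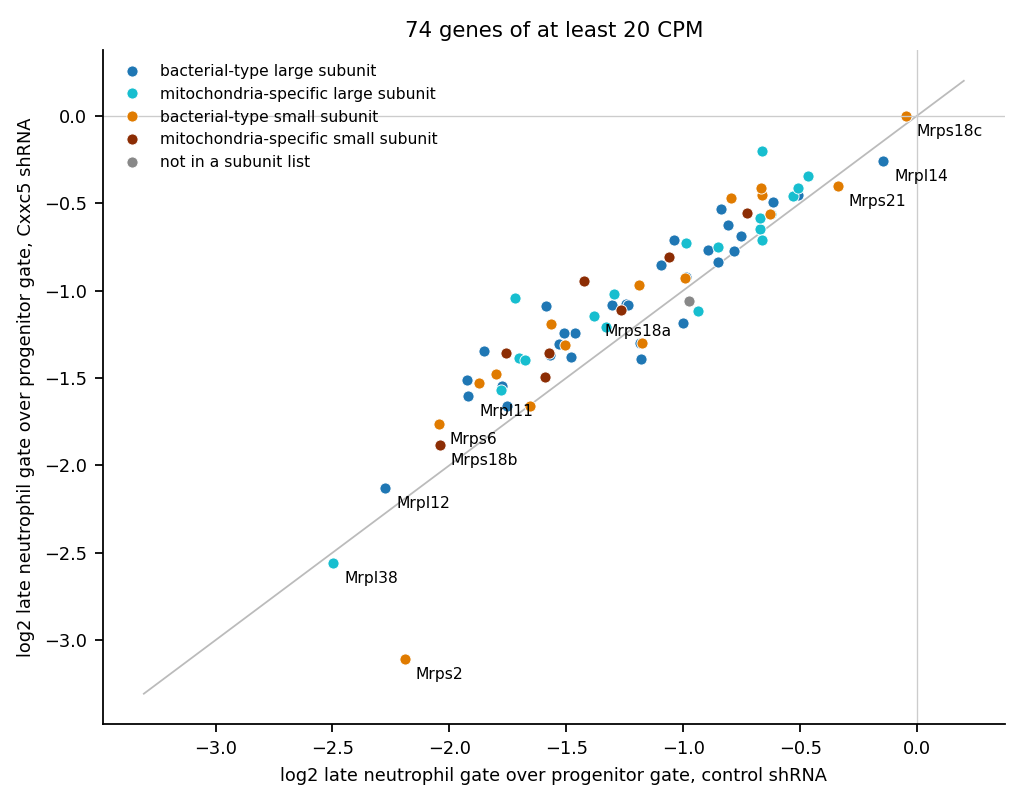
log2 ratio of late neutrophil over progenitor gate for the 74 genes in the control (horizontal axis) and knockdown (vertical axis) library, coloured by class; the grey diagonal is equality. All points lie at or below 0 on both axes, from Mrps18c near 0 to Mrpl38 (-2.50 and -2.56) and Mrps2 (-2.19 and -3.11).

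Among bacterial-type large-subunit genes, 28 of 30 in the control and 26 of 30 in the knockdown library were at least 1.5-fold lower in late neutrophil cells (median log2 ratios -1.21 and -1.09). Mrpl12 had the lowest ratio of that class. It was at 449 and 483 CPM in progenitor cells, 250 and 294 CPM in early neutrophil cells and 92.8 and 110 CPM in late neutrophil cells (log2 ratio -2.27, interval -2.43 to -2.12, and -2.13, interval -2.28 to -1.99). In monocyte cells it was at 422 and 474 CPM. Mrpl11, at the base of the stalk, was at 135 and 156 CPM in progenitor and 35.8 and 51.3 CPM in late neutrophil cells (log2 ratios -1.92 and -1.60).

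Mrpl14, at the face where the subunits join, had a different order of levels. It was at 170 and 166 CPM in progenitor, 189 and 185 CPM in early neutrophil and 154 and 139 CPM in late neutrophil cells. Its late-to-progenitor log2 ratio was -0.14 (interval -0.28 to -0.02) in the control and -0.26 (-0.39 to -0.12) in the knockdown library, and 0.15 and 0.04 without marker UMIs in the totals. The most abundant genes of the class, Mrpl18 and Mrpl33, had smaller differences than the median, with log2 ratios of -0.61 and -0.49 for Mrpl18 (531 and 505 CPM in progenitor, 347 and 359 CPM in late neutrophil cells) and -0.51 and -0.46 for Mrpl33. Across the 74 genes, the log2 of the mean level and the mean log2 ratio, both from the same UMIs, had a Pearson r of 0.34 and a Spearman rho of 0.30.

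Of the mitochondria-specific large-subunit genes, 16 of 19 and 14 of 19 were at least 1.5-fold lower (medians -0.94 and -0.75). Mrpl38, also of the central protuberance, had the largest difference in this class, at 72.0 and 74.3 CPM in progenitor and 12.8 and 12.6 CPM in late neutrophil cells (log2 ratio -2.50, interval -2.95 to -2.08, and -2.56, interval -3.01 to -2.14). Mrps30 was at 64.3 and 64.9 CPM in progenitor and 19.5 and 31.5 CPM in late neutrophil cells, log2 ratios of -1.72 and -1.04. By the mean of both libraries, the smallest differences were those of Mrpl45, which lies by the exit tunnel at the inner membrane (log2 ratios -0.47 and -0.35), Mrpl39 (-0.66 and -0.20) and Mrpl57 (-0.51 and -0.41). Of these, Mrpl39 in the knockdown library had an interval that reached 0 (-0.48 to 0.06).

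Of the bacterial-type small-subunit genes, 14 of 16 and 10 of 16 were at least 1.5-fold lower (medians -1.18 and -1.08). Mrps2 had the lowest ratio of all 74 genes by the mean of both libraries but rested on few UMIs, with 22.3 and 23.6 CPM in progenitor and 4.88 and 2.74 CPM in late neutrophil cells (log2 ratio -2.19, interval -2.96 to -1.52, and -3.11, interval -4.17 to -2.22). Mrps6 was at 34.7 and 33.5 CPM in progenitor and 8.41 and 9.87 CPM in late neutrophil cells (-2.05 and -1.76). Mrps12, a protein of the decoding centre, was at 219 and 234 CPM and at 77.02 and 94.3 CPM (-1.51 and -1.31). Mrps21, in contrast, was at 240 and 251 CPM and at 190 CPM in both libraries (-0.34 and -0.40).

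Of the mitochondria-specific small-subunit genes, 8 of 8 and 7 of 8 were at least 1.5-fold lower (medians -1.50 and -1.23). The sums of the large and the small subunit kept nearly the same proportion. The summed large-subunit level was 2.05 and 2.01 times the small-subunit level in progenitor cells and 1.97 and 1.92 times in late neutrophil cells. Mrps36 was at 178 and 180 CPM in progenitor and 90.9 and 86.3 CPM in late neutrophil cells (-0.97 and -1.06).

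The 3 genes of the Mrps18 family differed among themselves. Their products descend from the same bacterial protein but occupy different places: Mrps18c encodes the small-subunit counterpart, Mrps18b a further small-subunit protein and Mrps18a a large-subunit protein. Mrps18b, at chr17:35910379-35916389 on the minus strand, was at 126 and 137 CPM in progenitor, 83.3 and 93.4 CPM in early neutrophil and 30.7 and 37.0 CPM in late neutrophil cells. Mrps18a, at chr17:46110986-46128910 on the plus strand, was at 163 and 169 CPM, 139 and 140 CPM, and 62.4 and 76.2 CPM in the same gates. Mrps18c, at chr5:100798627-100804471 on the plus strand, was at 179 and 182 CPM, 208.5 and 201 CPM, and 173 and 181 CPM.

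The levels of Mrps18b and Mrps18a were thus lower at each step, whereas Mrps18c was highest in early neutrophil cells and near its progenitor level in late neutrophil cells. The late-to-progenitor log2 ratio was -2.04 (interval -2.33 to -1.77) and -1.88 (-2.14 to -1.64) for Mrps18b, -1.38 (-1.58 to -1.19) and -1.15 (-1.32 to -0.97) for Mrps18a, and -0.05 (-0.17 to 0.07) and -0.00 (-0.12 to 0.12) for Mrps18c. The intervals of the 3 genes did not overlap in either library. Without marker UMIs in the totals Mrps18c was above 0, at 0.25 and 0.30. Of the promoter windows shown above, that of Mrps18c held the E-box and ETS letters and that of Mrps18b the inner NRF1 letters. A link of these letters to the levels was not tested. In the progenitor gate Mrps18c exceeded Mrps18b by 1.42 and 1.33 times, and in the late neutrophil gate by 5.64 and 4.90 times.

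The other gates differed less from progenitor cells than late neutrophil cells did. In monocyte cells 1 of 74 genes in the control (background 4.62%) and 2 of 74 in the knockdown library (4.65%) were at least 1.5-fold lower, and none was as much higher (6.15% and 5.16%). Mrpl44, which has a ribonuclease-like fold, was among them in both, at 89.8 and 89.1 CPM in progenitor and 55.7 and 57.2 CPM in monocyte cells. In early neutrophil cells 13 of 74 (14%) and 11 of 74 (11.4%) were as much lower and none as much higher (6.1% and 5.24%). In mast cell and basophil cells the counts were 9 (12%) and 2 (7.33%) lower and none higher (8.25% and 7.08%), and in the 64 dendritic cells of each library 41 (30.7%) and 43 (29.9%) lower. Of these dendritic cells 49 and 46 met a further gate, most often the monocyte gate (49 and 44 cells), and doublets were kept; their early neutrophil markers stood at 536 CPM (control) and 6223 CPM (knockdown). In the 15 and 18 cells that met the dendritic gate alone the counts were 47 (38.0%) and 36 (27.6%). Outside the gates none was as much lower (7.71% and 7.23%), and 1 (4.74%) and 2 (3.94%) were as much higher. The share of the 74 genes was near or below the background except in dendritic and late neutrophil cells, where it was above.

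Over the 5 gates with at least 100 cells in each library, the lowest level was in late neutrophil cells in both libraries for 67 of 74 genes, and the highest in progenitor cells in both for 45. The shares of all genes with these extremes are not given here, so the counts are not shown to be particular to the 74. Monocyte cells were highest in both for 9 genes (Mrps2, Mrpl9, Mrpl33, Mrpl23, Mrpl4, Mrpl3, Mrps23, Mrpl27 and Mrps6), early neutrophil cells for Mrps18c and Mrpl14, and mast cell and basophil cells for Mrpl24. Mrps15 and Mrps18c were lowest in mast cell and basophil cells in both libraries, with 150 and 170 CPM for Mrps15. For Mrpl33 the monocyte level was 516 and 549 CPM, above 436 and 460 CPM in progenitor cells.

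Mrpl52, at chr14:54426909-54429756 on the plus strand, had a pattern of its own. It was highest in dendritic cells (224 and 172 CPM in control and knockdown). Next were monocyte cells (116.5 and 104 CPM) and mast cell and basophil cells (97.5 and 108 CPM), whose order differed between the libraries. The level was 79.0 and 76.2 CPM in progenitor, 47.7 and 43.8 CPM in early neutrophil and 31.5 and 32.9 CPM in late neutrophil cells. Mrpl52 was the gene of the 74 that was at least 1.5-fold higher in dendritic than in progenitor cells (log2 ratio 1.504 and 1.17, beside 17% and 17.9% of all genes). In the cells that met the dendritic gate alone it was at 209 and 149 CPM, from 55 and 27 UMIs. Mrpl52 was singled out after its values were seen.

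The machinery around the mitochondrial ribosome was compared by lists. In late neutrophil cells the summed level was 55.3% and 57.0% of that in progenitor cells for assembly factors, 40.7% and 44.2% for mitochondrial translation factors, 33.7% and 38.4% for mitochondrial tRNA synthetases and 38.5% and 41.3% for genes of mitochondrial DNA expression. Its templates, the mitochondrially encoded mRNAs, stood at 80.8% and 77.8%, and the nuclear genes of the respiratory chain at 72.1% and 75.9%. Cytosolic ribosomal proteins stood at 72.6% and 69.1%. In mast cell and basophil cells cytosolic ribosomal proteins were above the progenitor level (123% and 120%), as in dendritic cells (114% in both), where the mitochondrial ones were below it (76.1% and 80.6%, and 66.6% and 65.4%).

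**Figure D4:**
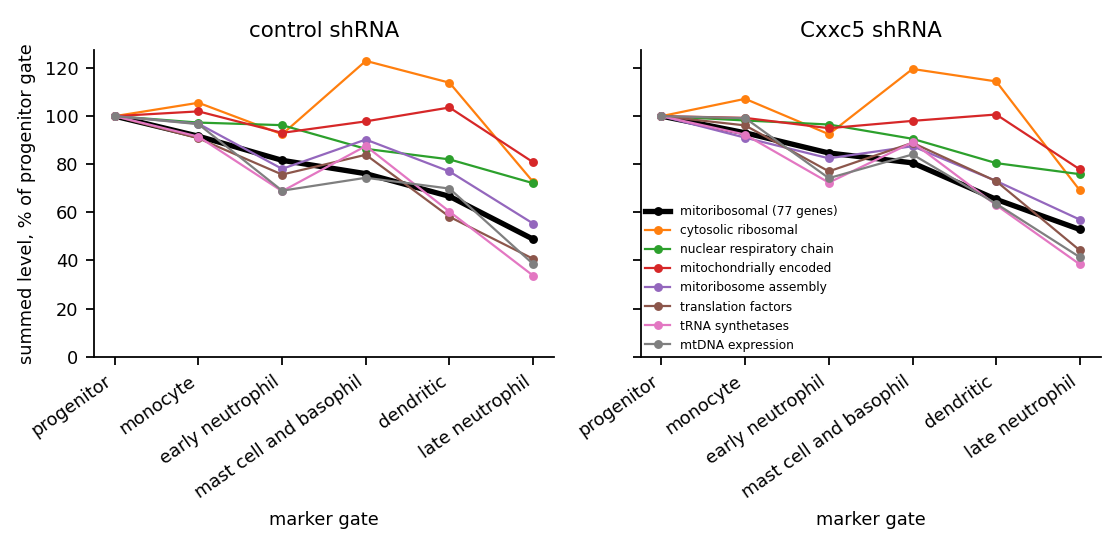
Summed level of each gene list as a percentage of its level in the progenitor gate (vertical axis) across marker gates (horizontal axis), in the control (left) and knockdown (right) library; lines join gates only to guide the eye and the black line is the 77 genes in sum. In late neutrophil cells the black line is at 48.8% and 52.9%, below the cytosolic ribosomal proteins (72.6% and 69.1%).

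Most genes of these lists were of low level, and many reached 20 CPM in the progenitor gate alone, which nearly fixes a lower call: 6 of the 9 assembly factors that passed in both libraries, 7 and 6 of 8 translation factors, and 3 of 3 tRNA synthetases. Counts are therefore given over all genes of a list with a UMI in both gates, with no minimum, beside 48.9% and 47.6% of all such genes. At least 1.5-fold lower in late neutrophil cells were 18 and 21 of 24 assembly factors, 10 of 13 translation factors in both libraries, 17 and 16 of 17 tRNA synthetases, and 12 of 13 genes of mitochondrial DNA expression in both. The elongation factor gene Tufm was at 36.4 and 35.4 CPM in progenitor and 7.59 and 10.7 CPM in late neutrophil cells (log2 ratios -2.26 and -1.73). Lrpprc, which stabilises mitochondrial mRNAs, was at 30.5 and 33.3 CPM and at 5.42 and 6.03 CPM (-2.49 and -2.47). Rbfa, a maturation factor of the small subunit, was the assembly factor with the highest level and stood at 104 and 109.5 CPM and at 101 and 105 CPM (-0.05 and -0.06). Of the 5 mitochondrial ribosomal proteins with other names, Gadd45gip1 had log2 ratios of -2.25 and -1.95, and Aurkaip1 -0.08 and 0.19. Those of Dap3, Chchd1 and Ptcd3 lay between -0.58 and -2.42. Of 9 regulators 5 were at least 1.5-fold lower in each library, a share near that of all genes. Nrf1 (log2 ratios -0.45 and -0.30), Gabpa (-0.05 and -0.44) and Gabpb1 (-0.11 and -0.27) were not among them. Gabpb2 (-0.81 and -0.73), Pprc1 (-2.89 and -2.75) and Ppargc1b (-3.03 and -2.91), all under 20 CPM over all cells, were in both. Yy1 (-0.69 and -0.53) was in the control alone and Esrra (-0.51 and -0.79) in the knockdown library alone. Myc was in both (71.0 and 68.7 CPM in progenitor, 13.6 and 20.6 CPM in late neutrophil cells). In mast cell and basophil cells Myc was at 101 and 88.7 CPM, above its progenitor level, where the 77 genes in sum were below theirs. The part of Myc in the pattern was not tested. With the minimum of 20 CPM, 52.5% and 49.7% of all genes were at least 1.5-fold lower. So were 2 of 6 regulators and 5 of 12 mitochondrially encoded mRNAs in each library, 40 and 33 of 80 respiratory chain genes, and 22 and 38 of 80 cytosolic ribosomal protein genes. These shares were below that of all genes.

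Between the libraries the differences were small. Over all cells the summed level of the 77 genes was 1.06 times as high with the Cxxc5 shRNA as with the control shRNA (log2 ratio 0.09, interval 0.08 to 0.09). Of the 74 genes, 67 were above 0 and 7 below, with a median log2 ratio of 0.08 beside 0.04 over all genes of 20 CPM or more. Intervals lay above 0 for 51 and below 0 for 2 genes. The shares of all genes above 0 or with such intervals are not given here, so these counts are not shown to be particular to the 74. One gene, Mrpl11, was at least 1.2-fold higher, where 3.02% of all genes were, and none was as much lower, where 4.06% were. No replicate stands behind these ratios, and the gate make-up moved with them: progenitor cells were 39.2% of the control and 49.9% of the knockdown library, and late neutrophil cells 10.6% and 7.58%. With the gate shares of the control library the summed log2 ratio was 0.058. With those shares Mrpl11 had a log2 ratio of 0.258, and centred on the median of all genes 0.263, just short of 1.2-fold in both, so that no gene was called.

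Mrpl11, at chr19:4962147-4966999 on the plus strand, had a level of 113 CPM (control) and 138 CPM (knockdown), a log2 ratio of 0.30 (interval 0.25 to 0.35). The 5 gates compared all had the higher level in the knockdown library, with 135 against 156 CPM in progenitor, 88.8 against 116 CPM in early neutrophil, 35.8 against 51.3 CPM in late neutrophil, 124 against 143 CPM in monocyte and 97.0 against 121 CPM in mast cell and basophil cells. Each of these 5 intervals lay above 0. The next genes were Mrps34 (158 and 185 CPM, log2 ratio 0.23), Mrpl55 (97.5 and 114 CPM, 0.23), Mrpl54 (259 and 303 CPM, 0.23), Mrps18b (105 and 121 CPM, 0.20), Mrps10 (99.5 and 114 CPM, 0.20), Mrpl12 (0.19) and Mrps26 (165 and 187 CPM, 0.18). All of these were within 1.2-fold.

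At the low end were Mrpl52 (82.3 and 77.9 CPM, log2 ratio -0.08, interval -0.14 to -0.02), Mrpl21 (121 and 116.5 CPM, -0.05), Mrpl14 (167 and 163 CPM, -0.04), Mrpl23 (157 and 153 CPM, -0.03), Mrpl16 (72.6 and 72.0 CPM, -0.01), Mrpl18 (-0.01), Mrpl50 (70.0 CPM in both, -0.00) and Mrpl45 (87.7 and 87.9 CPM, 0.00). All but Mrpl52 and Mrpl21 had intervals that included 0. By class the median log2 ratio was 0.06 for bacterial-type and 0.10 for mitochondria-specific large-subunit genes, and 0.09 and 0.12 for the corresponding small-subunit genes. Mrps18a (141 and 151 CPM) and Mrps18c (175 and 176 CPM) had log2 ratios of 0.10 and 0.01.

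**Figure D5:**
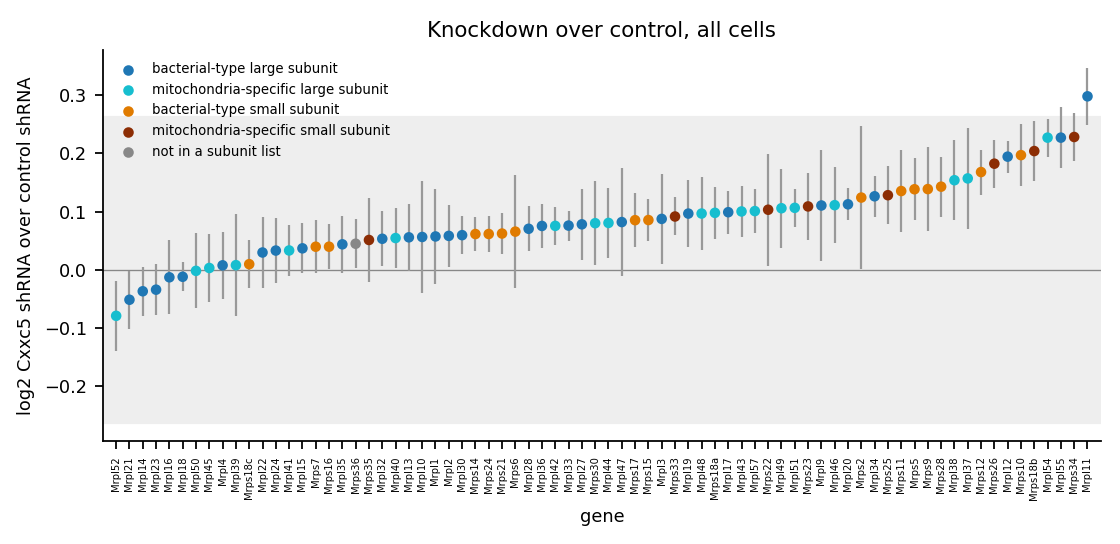
log2 ratio of knockdown over control library for each of the 74 genes over all cells (vertical axis), ordered by value and coloured by class, with 95% counting intervals; the grey band marks 1.2-fold. Mrpl11 (0.30) is the gene above the band and none lies below it, with Mrpl52 lowest (-0.08).

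Within gates the median log2 ratio of knockdown over control was 0.03 in progenitor, 0.06 in monocyte, 0.09 in early neutrophil, 0.11 in mast cell and basophil and 0.22 in late neutrophil cells. At least 1.2-fold higher were 0 of 74 genes in progenitor cells (background 2.49%), 1 of 74 in monocyte cells (5.37%), 4 of 74 outside the gates (10.4%), 3 of 73 in early neutrophil cells (7.18%), 10 of 74 in mast cell and basophil cells (17.6%) and 26 of 66 in late neutrophil cells (22.3%). In late neutrophil cells the share of these genes was above that of all genes, whose median there was 0.08, and in the other gates it was below. As much lower were 0 genes in progenitor (2.92%) and early neutrophil cells (6.56%) and 1 gene each in monocyte (6.76%), mast cell and basophil (11.9%) and late neutrophil cells (11%) and outside the gates (9.85%). All 66 genes reached 20 CPM in late neutrophil cells of the knockdown library, but 62 did in the control. The minimum thus favoured a higher call for the rest, Mrps30 among them. Among the 66 genes in late neutrophil cells Mrps30 was highest (19.5 and 31.5 CPM, log2 ratio 0.69, interval 0.25 to 1.14) and Mrpl21 was lowest (62.1 and 49.6 CPM, -0.32, interval -0.61 to -0.04). Late neutrophil marker levels in that gate were 16430 and 18022 CPM, and median UMIs 11544.5 and 7698. The part of either in this difference was not tested. The ratio was above 0 in all 5 gates for 27 of 74 genes, and the share of all genes for which it was is not given here.

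Of the surrounding lists, 1 of 7 assembly factors was at least 1.2-fold higher over all cells, Wbscr16 (16.5 and 20.2 CPM, log2 ratio 0.29), and 1 of 12 mitochondrially encoded mRNAs at least 1.2-fold lower, mt-Atp8 (99.3 and 69.0 CPM, log2 ratio -0.53). Wbscr16 reached 20 CPM in the knockdown library alone, so that the minimum favoured a higher call for it. Of all genes 3.02% were as much higher and 4.06% as much lower. The reading frame of mt-Atp8 overlaps that of mt-Atp6 on the same RNA, so its count is uncertain. None of 7 translation factors, 3 tRNA synthetases, 5 genes of mitochondrial DNA expression, 6 regulators and 5 mitochondrial ribosomal proteins with other names passed 1.2-fold in either direction. Among them Gadd45gip1 (259 and 299 CPM, 0.21) and Pnpt1 (19.2 and 22.0 CPM, 0.20) were highest, and Pnpt1 too reached 20 CPM in the knockdown library alone.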

How the data were processed

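Single cells were measured with 10x Genomics 3' version 2 chemistry in 2 pooled libraries. The authors deposited UMI counts per gene and cell. Per the submitters' processing notes, Cell Ranger 2.1.1 and the build mm10 were used. The sources used here do not give the annotation release, and genes were located in GENCODE M21 by identifier. Per the labels, reads were sequenced after PCR, and UMIs count copies of a molecule once.

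Cells with at least 500 genes and at most 10% mitochondrial UMIs were kept (13 control and 11 knockdown barcodes removed), and doublets were kept. A cell entered the first gate met, in this order, with at least the given number of list UMIs per 10000: dendritic 10, mast cell and basophil 6, late neutrophil 30, monocyte 4, early neutrophil 75, progenitor 100. Of the cells, 72 control and 89 knockdown cells met several gates. UMIs were summed over cells as CPM with exact Poisson intervals, and each ratio has an exact binomial interval from how its UMIs divide between the sides. The calculation was tested on simulated data.

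No test was made, since each group has 1 library. Genes of at least 20 CPM in either side of a comparison were counted at 1.2-fold between libraries and 1.5-fold between gates. Named were the 8 highest and 8 lowest ratios between libraries, the 5 highest levels, the 6 highest and 6 lowest ratios of late neutrophil over progenitor cells, genes under 5 CPM, the genes named by role (Mrps18a, Mrps18b, Mrps18c, Mrps30, Mrps36, Mrpl12 and Mrps12) and up to 4 of each other list; others were named after their values were seen. Of 176 list genes 171 were matched by symbol. Genes and lists were chosen with earlier results of these data known. Gate cut-offs were set from the marker shares before levels were summed, and the 1.5-fold limit, the marker bins, the G2/M split, the depth window, the totals without marker UMIs, the counts without a minimum level, the dendritic cells of 1 gate and the inner NRF1 letters were chosen after seeing the data. Python 3.11.15, numpy 2.4.6, scipy 1.17.1 and pandas 2.3.3 were used. Alternatives varied the cell filter, depth, scaling, weighting of cells, gate shares, cut-offs, minimum level and fold.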

Additional observations from a re-analysis of the deposited data

How the results depend on the processing

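No paired analysis was possible because each group has 1 library and the labels give no replicate numbers. For the knockdown over control comparison, the median log2 ratio moved from 0.08 to 0.14 when cells were thinned to 5000 UMIs, and the summed log2 ratio from 0.09 to 0.13 when thinned, 0.052 when centred on the median of all genes, 0.12 as a mean of per-cell levels, 0.058 with the gate shares of the control library and 0.10 without the 5% of cells with most UMIs. The count of genes at least 1.2-fold higher was 1 and became 6 when thinned, 0 when centred, 3 as a mean of per-cell levels, 0 with control gate shares, 2 with no minimum level, 14 at 1.1-fold and 0 at 1.5-fold. Small ratios near 0, such as those of Mrpl16, Mrpl18, Mrpl45, Mrpl50, Mrpl39 and Mrps18c, changed sign under 2 of 6 alternatives and that of Mrpl21 under 1.

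For late neutrophil over progenitor cells, the summed log2 ratio of -1.03 in the control was -0.94 with cut-offs halved, -1.09 with cut-offs doubled, -1.11 thinned, -1.22 in cells of 6000 to 12000 UMIs and -0.74 without marker UMIs. That of -0.92 in the knockdown library was -0.85, -0.95, -0.88 and -0.62 under the same alternatives other than thinning. The median over genes was -1.47 (control) and -0.98 (knockdown) in the depth window, and -0.89 and -0.78 without marker UMIs. The cause of these moves was not tested. With cut-offs doubled, cells outside the gates stood above progenitor cells (log2 ratio 0.034 and 0.045). The single-gene ratio of Mrps18c was above 0 in a library under several alternatives, and 149 of 180 values of single named genes between libraries moved by less than their tolerance. Of 80 values of the summed level in gates other than the late one over progenitor cells, 38 did, 40 moved further and 2 changed sign. In the control the log2 ratio ran from -0.58 to -0.27 for mast cell and basophil, -0.32 to -0.22 for early neutrophil and -0.26 to -0.08 for monocyte cells. These ranges overlap, and the gate order above is that of the main setting. Depth limits Mrps2, Mrps6 and other genes of few UMIs, and gates under 100 cells were not compared between libraries.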

Other observations

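Many of the 77 genes share a start region with another gene. In GENCODE M21, 19 of 77 (24.7%) had a protein-coding gene on the other strand that starts within 1000 bases, against 7.29% of all 21554 protein-coding genes in the matrices and 13.4% of 4752 such genes of at least 20 CPM. Of the 19 partners, 12 had a higher late neutrophil over progenitor ratio than the member in both libraries, 3 a lower one, 3 differed in direction between libraries and 1 had no value in a library. Of these partners 7 reached 20 CPM, and ratios of the others rest on fewer UMIs. Lrrc46, the partner of Mrpl10 and one of the 12, was at 0.30 and 0.24 CPM. In the 6 pairs with both genes at 20 CPM or more the partner's ratio was the higher in both libraries. Of these pairs 5 are named here, chosen after their values were seen, and the sixth is Mrpl30 with Mitd1. Over all genes of 20 CPM or more the median log2 ratio was -0.63 and -0.58, above the -1.19 and -1.08 of the 74 genes. Most of all genes thus had a higher ratio than the median of the 74, and the share above each single member was not counted. An example of the opposite order is Hira, at 17.7 CPM in the control library, with -1.76 and -1.09 against -0.66 and -0.71 for Mrpl40. Mrpl36 and Ndufs6, a gene of respiratory complex I, start 29 bases apart and were at 200 and 295 CPM in the control library, with late neutrophil over progenitor log2 ratios of -1.92 and -0.65. In the knockdown library these ratios were -1.51 and -0.57. Mrps18b and Ppp1r10, a regulatory subunit of protein phosphatase, start 45 bases apart and had ratios of -2.04 and -0.56 in the control and -1.88 and -0.43 in the knockdown library. Mrpl32 and Psma2, a proteasome subunit, had -0.75 and -0.34 in the control and -0.69 and -0.13 in the knockdown library. Mrpl49 and Fau, a cytosolic ribosomal protein gene, were at 61.2 and 2977 CPM in the control library, with ratios of -0.94 and 0.15, and of -1.12 and -0.05 in the knockdown library. Mrpl51 and the condensin gene Ncapd2 had ratios of -0.67 and -0.38 in the control and -0.59 and -0.36 in the knockdown library.

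Within gates, cells with fewer than 2 G2/M marker UMIs per 10000 had lower summed levels of the 77 genes than the other cells of the gate, in each of the 6 gates and outside them in both libraries. In progenitor cells the levels were 8936 CPM in 38 such cells and 11803 CPM in the other 1103 in the control (log2 ratio -0.40), and 10709 and 12077 CPM in the knockdown library (-0.17). In late neutrophil cells they were 3462 CPM (35 cells) and 5909 CPM in the control (-0.77) and 4822 CPM (42 cells) and 6462 CPM in the knockdown library (-0.42). The smallest differences were in early neutrophil cells, with log2 ratios of -0.15 (15 cells with few G2/M UMIs) and -0.08 (50 cells). No other gene list is given for this split. The cells with few G2/M UMIs were also shallower, with medians of 6337 against 12105 UMIs in late neutrophil cells of the control. The part of depth was not tested. The split was chosen after seeing the data.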
